A study of Mus musculus with 8 samples.

Results

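Integrins and laminins, the cell surface receptors and basement membrane proteins that hold cells to matrix and to each other, were followed gene by gene in tumors grown under the skin of mice. The injected cells were MC38-OVA, a line of mouse colon cancer that makes ovalbumin as a model antigen. Members were taken by name: every gene of the deposited table called Itga or Itgb followed by a digit, Itgad, Itgae, Itgal, Itgam, Itgav, Itgax, or Lama, Lamb or Lamc followed by a digit, without names that have bp or l after the digit. This gave 37 of the 25766 entries of the table, with 18 integrin alpha chains, 8 integrin beta chains and 11 laminin chains. The tumors formed 2 groups: 4 grown from MC38-OVA cells labelled shXBP1, a short hairpin RNA against Xbp1, and 4 grown from the same line labelled shNT, taken here as the control hairpin. Both groups carried a hairpin and ovalbumin, and both were grown in female C57BL/6J mice. The hairpins were in the injected cells, so host cells carried none. The age of the mice and whether each line was 1 clone are not given in the labels. RNA-seq was run on total RNA of the whole tumor, so each library holds RNA of cancer cells and of host leukocytes, vessels and stroma, and fewer cells of a type cannot be told apart from less RNA per cell. By its title, the series asks what XBP1, which drives part of the response to unfolded proteins, does inside cancer cells to the myeloid cells around them.

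An integrin is a pair of 1 alpha and 1 beta chain, and the pair sets which ligands are bound, while many pairs are typical of certain cell types. Chains that pair with Itgb2, and the chains Itga4, Itgae and Itgb7, serve leukocytes in adhesion, homing and migration, while Itgb4 with Itga6 holds epithelial cells to the basement membrane. Laminins are trimers of an alpha, a beta and a gamma chain: Lama4 and Lama5 are the alpha chains of vessel basement membranes, and Lama3 and Lamb3 serve the laminin beneath epithelia. On this basis the members were sorted into 8 leukocyte chains, 7 endothelial and vessel wall chains, 9 epithelial chains, 6 muscle and mesenchymal chains and 7 other chains. Many chains are made by more than 1 cell type, so the class of a chain does not give the source of its RNA in these tumors.

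Promoters of members are shown because PU.1 and RUNX, regulators of leukocyte genes, bind short sequences that can be read in them. RefSeq (GRCm38.p6) gave 26 promoter entries for 23 of the 37 members, each with 250 bases before and 50 bases after a transcription start. The PU box was searched as GAGGAA and the RUNX core as TGTGGT, each on both strands, and matches are in capitals. The lines hold all 4 leukocyte chains with an entry, then Itga1, a vessel wall chain that rose, and the 2 entries of Itga3, the chain that fell.
Itgam, chr7:128062390-128062689, plus strand: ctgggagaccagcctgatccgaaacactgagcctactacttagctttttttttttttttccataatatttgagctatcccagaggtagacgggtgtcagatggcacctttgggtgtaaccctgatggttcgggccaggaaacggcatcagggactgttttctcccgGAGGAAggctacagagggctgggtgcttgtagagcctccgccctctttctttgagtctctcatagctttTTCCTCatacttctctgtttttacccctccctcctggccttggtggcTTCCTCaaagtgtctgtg
Itgax, chr7:128129300-128129599, plus strand: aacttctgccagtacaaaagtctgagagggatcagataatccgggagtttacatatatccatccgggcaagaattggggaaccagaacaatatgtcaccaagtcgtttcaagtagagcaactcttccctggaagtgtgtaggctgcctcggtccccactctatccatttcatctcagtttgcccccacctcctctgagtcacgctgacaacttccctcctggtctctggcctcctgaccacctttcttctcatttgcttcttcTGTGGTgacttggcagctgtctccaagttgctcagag
Itga4, chr2:79255176-79255475, plus strand: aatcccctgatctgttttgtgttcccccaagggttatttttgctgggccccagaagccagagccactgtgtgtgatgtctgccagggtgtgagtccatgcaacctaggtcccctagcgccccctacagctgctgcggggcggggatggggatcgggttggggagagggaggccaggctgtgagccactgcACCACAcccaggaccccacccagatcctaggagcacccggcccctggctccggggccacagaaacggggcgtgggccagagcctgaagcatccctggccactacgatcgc
Itgb7, chr15:102231886-102232185, minus strand: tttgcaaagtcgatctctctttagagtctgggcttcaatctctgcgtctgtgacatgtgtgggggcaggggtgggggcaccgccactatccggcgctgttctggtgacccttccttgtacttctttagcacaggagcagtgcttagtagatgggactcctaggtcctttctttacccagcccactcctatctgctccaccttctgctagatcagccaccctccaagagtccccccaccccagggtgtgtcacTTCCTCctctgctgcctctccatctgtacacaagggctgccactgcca
Itga1, chr13:115101915-115102214, minus strand: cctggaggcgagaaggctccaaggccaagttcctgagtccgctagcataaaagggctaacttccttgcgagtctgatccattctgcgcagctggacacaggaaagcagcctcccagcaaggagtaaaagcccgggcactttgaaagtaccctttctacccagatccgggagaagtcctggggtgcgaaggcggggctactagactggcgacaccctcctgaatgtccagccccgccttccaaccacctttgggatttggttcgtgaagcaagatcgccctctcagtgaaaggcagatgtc
Itga3, chr11:95076665-95076964, minus strand: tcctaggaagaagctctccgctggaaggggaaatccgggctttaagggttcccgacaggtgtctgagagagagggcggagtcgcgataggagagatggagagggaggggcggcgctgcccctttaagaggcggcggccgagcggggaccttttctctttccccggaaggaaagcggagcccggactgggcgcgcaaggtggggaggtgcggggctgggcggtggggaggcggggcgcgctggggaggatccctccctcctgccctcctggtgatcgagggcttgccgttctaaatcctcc
Itga3, chr11:95069149-95069448, minus strand: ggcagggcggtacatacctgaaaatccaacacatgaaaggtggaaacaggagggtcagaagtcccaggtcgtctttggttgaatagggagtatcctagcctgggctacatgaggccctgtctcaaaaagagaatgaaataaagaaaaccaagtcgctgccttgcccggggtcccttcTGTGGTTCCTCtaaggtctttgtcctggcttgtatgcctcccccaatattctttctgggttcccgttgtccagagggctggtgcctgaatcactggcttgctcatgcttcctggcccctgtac
Itgam held 3 PU boxes, 84 and 15 bases before and 32 bases after its start (to the first base of the motif), while Itgax and Itga4 held no PU box and 1 RUNX core each. Itgb7 held 1 PU box, 2 bases after its start. The Itga1 promoter held neither motif, and 1 of the 2 Itga3 entries held both in an overlapping pair. A PU box was found in 2 of the 4 leukocyte entries and in 14 of the 26 member entries (53.8%), against 28.3% of all 32851 promoters of the table. The RUNX core was found in 3 member entries (11.5%), against 16.8% of all promoters. A match describes letters only, and binding of a factor was not measured.

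Libraries held 29070605 to 36012997 counts per tumor. Xbp1 checks the labels: it stood at 77.2, 76.0, 73.7 and 56.6 CPM (counts after scaling to library size) in shXBP1 tumors 1 to 4, against 97.3, 96.0, 103 and 109 CPM in shNT tumors 1 to 4. All 4 shXBP1 tumors lay below the 4 shNT tumors (log2 fold change -0.51, SE 0.10, adjusted p = 0.00255, edgeR's quasi-likelihood test with Benjamini-Hochberg adjustment). Unless another test is named, adjusted p-values are from this test, fitted over all genes, and log2 fold changes are shXBP1 over shNT. Nothing in the labels ties a tumor number to a mouse, so the spread behind each p-value may be partly technical. Markers of several host cell types rose in shXBP1 tumors: 5 of 5 pan-leukocyte genes, 6 of 6 T cell genes, 5 of 6 macrophage and monocyte genes, 5 of 5 mast cell genes, 7 of 10 endothelial genes and 6 of 9 fibroblast genes. Most epithelial markers were low in these tumors, and 3 of 11 passed the filter on low counts. Krt8 summed to 11 counts over the shXBP1 tumors and 19 counts over the shNT tumors. Epcam stayed at or below 0.664 CPM in shXBP1 tumors and 0.378 CPM in shNT tumors. The summed level of the 11 epithelial markers was 7.68 to 11.1 CPM in shXBP1 tumors and 5.90 to 7.88 CPM in shNT tumors. Most of it was Cdh1, at 7.01 to 9.86 CPM in shXBP1 tumors and 4.54 to 6.96 CPM in shNT tumors.

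More chains were higher than lower in shXBP1 tumors. Of the 37 members, 32 passed the filter on low counts. Of these, 13 rose and 1 fell, which is 43.8% of those tested, against 30.0% called among all 14907 genes tested (16.9% higher and 13.1% lower). The median log2 fold change of the 32 was 0.31, against -0.01 for all genes tested. The changes went by class: 5 of 7 leukocyte chains, 5 of 7 vessel wall chains and 3 of 5 muscle and mesenchymal chains rose, while 0 of 8 epithelial chains rose and 1 fell, and 0 of 5 other chains changed. In 11 members all 4 shXBP1 tumors lay above the 4 shNT tumors and in 1 they all lay below, against 16.6% and 13.6% of all genes. Without shXBP1 tumor 4, 13 members rose and 3 fell, among 35.1% of all genes called, with Itgb7 and Itga3 among those that fell. The calls of Itga5, Lamc1 and Lamb2 were lost on leaving out 1 of several single tumors. With the log2 CPM of Ptprc, the pan-leukocyte gene, as a covariate, 3 members rose (Itgb2, Itga1 and Itgb3) and 0 fell by edgeR, where 1.61% of all genes were called. Without adjustment 9 members were higher and 2 lower at p under 0.05 in that fit. The share of all genes at an unadjusted p was not counted, here or for other unadjusted counts below. Ptprc was itself higher in every shXBP1 tumor than in every shNT tumor, so the covariate largely follows the groups. The SE went from 0.37 to 0.80 for Itgae and from 0.18 to 0.20 for Itga3. The log2 fold change went from 1.91 to 0.45 for Itgae and from -1.09 to -0.09 for Itga3. A call lost in this fit therefore cannot be assigned to Ptprc or to the hairpin. Members below the filter were Itgad with 3 counts in shXBP1 tumors and 5 in shNT tumors, Itgb6 with 17 and 5, Itga11 with 30 and 10, Lama1 with 0 and 12, and Lamc3 with 31 and 6, each summed over 4 tumors.

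**Figure D1:**
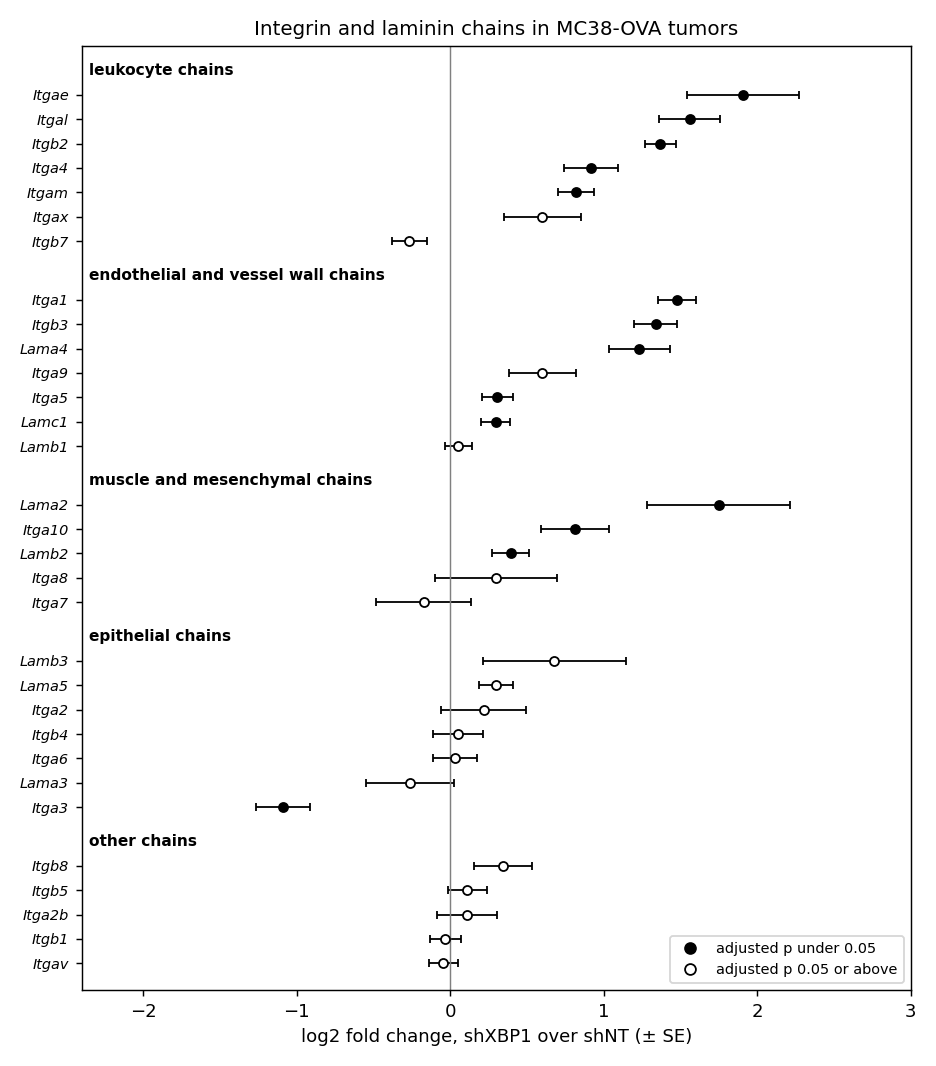
Log2 fold change (shXBP1 over shNT, x axis) of 31 tested chains, in rows by class; bars are the standard error and filled points have an adjusted p under 0.05. Leukocyte and vessel wall chains lie mostly to the right of 0, the epithelial chains around 0, and Itga3 stands alone at -1.09.

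In shXBP1 tumors 5 of 7 tested leukocyte chains rose, with a median log2 fold change of 0.92 over the 7. Itgb7 and Itgax were not among the calls. Itgb2, the beta chain shared by the leukocyte adhesion receptors, had 161, 188, 175 and 142 CPM in shXBP1 tumors, against 62.0, 59.7, 72.5 and 63.4 CPM in shNT tumors. Every shXBP1 tumor was above every shNT tumor, and the level was 2.59-fold higher (log2 fold change 1.37, SE 0.10, adjusted p = 4.85e-06). Itgal, the CD11a chain that lymphocytes use to bind ICAM1, had 82.6, 89.9, 80.8 and 46.1 CPM in shXBP1 tumors, against 23.0, 22.4, 31.2 and 25.0 CPM in shNT tumors. The groups did not overlap, shXBP1 tumor 4 was the lowest of its group, and the level was 2.95-fold higher (log2 fold change 1.56, SE 0.20, adjusted p = 0.000428). Itgam, the CD11b chain of macrophages, monocytes and neutrophils, had 126, 176, 172 and 129 CPM in shXBP1 tumors, against 87.6, 77.6, 90.3 and 85.8 CPM in shNT tumors. It was higher in all 4 shXBP1 tumors by a smaller factor of 1.77 (log2 fold change 0.82, SE 0.12, adjusted p = 0.00034). Itgam shares 3450 of its 5024 exonic bases with Gm49368, a gene on the same strand whose counts came to 1.8% of those of Itgam, so reads of the pair could be split between them.

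Itgae and Itga4 pair with Itgb7, and both rose. Itgae, the CD103 chain of tissue-resident T cells and some dendritic cells, had 1.72, 2.51, 3.12 and 1.18 CPM in shXBP1 tumors, against 0.599, 0.599, 0.693 and 0.374 CPM in shNT tumors. The groups did not overlap and the fold was the largest of the leukocyte chains, 3.75 (log2 fold change 1.91, SE 0.37, adjusted p = 0.00215), on 284 counts in all in shXBP1 tumors and 70 in shNT tumors. Itga4, which binds VCAM1 on vessels with Itgb1 and MAdCAM1 in gut vessels with Itgb7, had 18.4, 23.6, 21.1 and 12.5 CPM in shXBP1 tumors, against 9.49, 8.80, 11.3 and 10.4 CPM in shNT tumors. All shXBP1 tumors were above all shNT tumors, by 1.89-fold (log2 fold change 0.92, SE 0.18, adjusted p = 0.00221). Itgax, the CD11c chain of dendritic cells and many tissue macrophages, had 24.3, 25.7, 22.1 and 10.2 CPM in shXBP1 tumors, against 13.7, 11.4, 13.9 and 15.2 CPM in shNT tumors. Here 3 shXBP1 tumors lay above and tumor 4 below every shNT tumor, and the difference did not pass the test (log2 fold change 0.60, SE 0.25, adjusted p = 0.0974). Without shXBP1 tumor 4 Itgax passed (log2 fold change 0.83, adjusted p = 0.000142), and DESeq2 called it with all tumors.

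**Figure D2:**
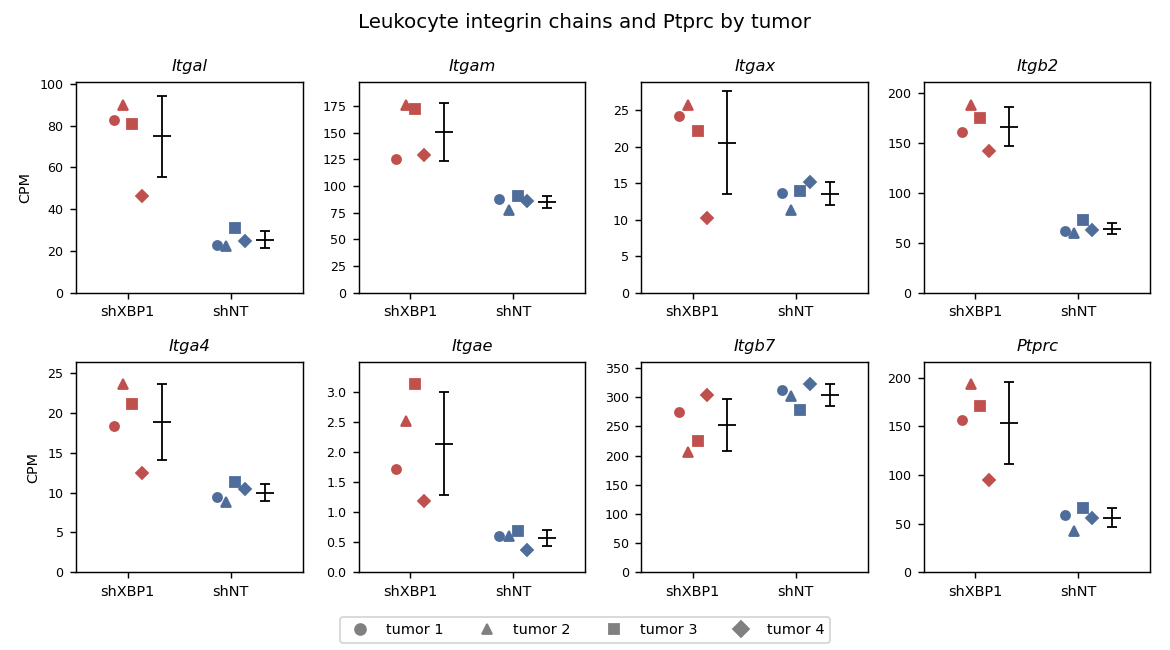
CPM by tumor (y axis, from 0) for 7 leukocyte chains and Ptprc in shXBP1 tumors (left) and shNT tumors (right); symbols number the tumors and crosses with bars give the mean and SD of 4 tumors. The shXBP1 tumors lie above the shNT tumors in 6 panels, overlap them in Itgax and Itgb7, and tumor 4 is the lowest shXBP1 point in 6 of the 8 panels.

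Ptprc, which encodes CD45, rose beside these chains, with 156, 193, 171 and 94.8 CPM in shXBP1 tumors against 59.4, 42.6, 66.5 and 56.4 CPM in shNT tumors. The summed level of the 6 T cell markers was 68.9 to 224 CPM in shXBP1 tumors against 24.5 to 49.7 CPM in shNT tumors, and that of the 6 macrophage and monocyte markers 2280 to 4460 CPM against 1410 to 2000 CPM, with shXBP1 tumor 4 the lowest of its group in each. Each gene was therefore also fitted relative to Ptprc of the same tumor, which adds the error of Ptprc to every value. That error is shared by all genes and comes from 4 tumors per group. The fit treats it as well known, so its p-values are probably too small for single genes. On that scale the median log2 fold change of all genes was -1.39 and 84.7% of 14906 genes were called (0.852% higher and 83.9% lower). Of the 32 tested members, 0 rose and 21 fell, and without adjustment 0 had p under 0.05 as higher. Among leukocyte chains, the log2 fold change relative to Ptprc was 0.10 for Itgal (SE 0.30, adjusted p = 0.761), -0.04 for Itgb2 (SE 0.30, adjusted p = 0.898) and 0.42 for Itgae (SE 0.47, adjusted p = 0.395). It was -0.60 for Itgam (adjusted p = 0.0579) and -0.54 for Itga4 (adjusted p = 0.0854), and both passed the threshold as lower without shXBP1 tumor 4. Itgax, relative to Ptprc, fell by 0.89 in log2 units (SE 0.30, adjusted p = 0.0042), and Itgb7 fell by 1.60 (adjusted p = 6.49e-07). In the fit with Ptprc as a covariate, Itgb2 kept its call (log2 fold change 0.84, adjusted p = 0.0205). Itgal (0.30, adjusted p = 0.551), Itgam (0.25, adjusted p = 0.592), Itgae (0.45, adjusted p = 0.831) and Itga4 (-0.22, adjusted p = 0.73) were not called in it. Because Ptprc did not overlap between the groups, these losses cannot be assigned to Ptprc or to the hairpin.

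The makeup of the Itgb2 family was also compared within tumors, in FPKM, the authors' length-scaled unit. The ratio of Itgal to Itgam was 0.592, 0.468, 0.427 and 0.333 in shXBP1 tumors, against 0.235, 0.263, 0.311 and 0.262 in shNT tumors. All 4 shXBP1 tumors had more Itgal per Itgam than any shNT tumor. The ratio of Itgam to Itgb2 was 0.493, 0.595, 0.624 and 0.580 in shXBP1 tumors, against 0.898, 0.827, 0.790 and 0.862 in shNT tumors, with no overlap and less Itgam per Itgb2 in shXBP1 tumors. Itgal per Itgb2 overlapped, at 0.193 to 0.292 in shXBP1 tumors and 0.211 to 0.246 in shNT tumors. These ratios are given as descriptions, with no test.

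**Figure D3:**
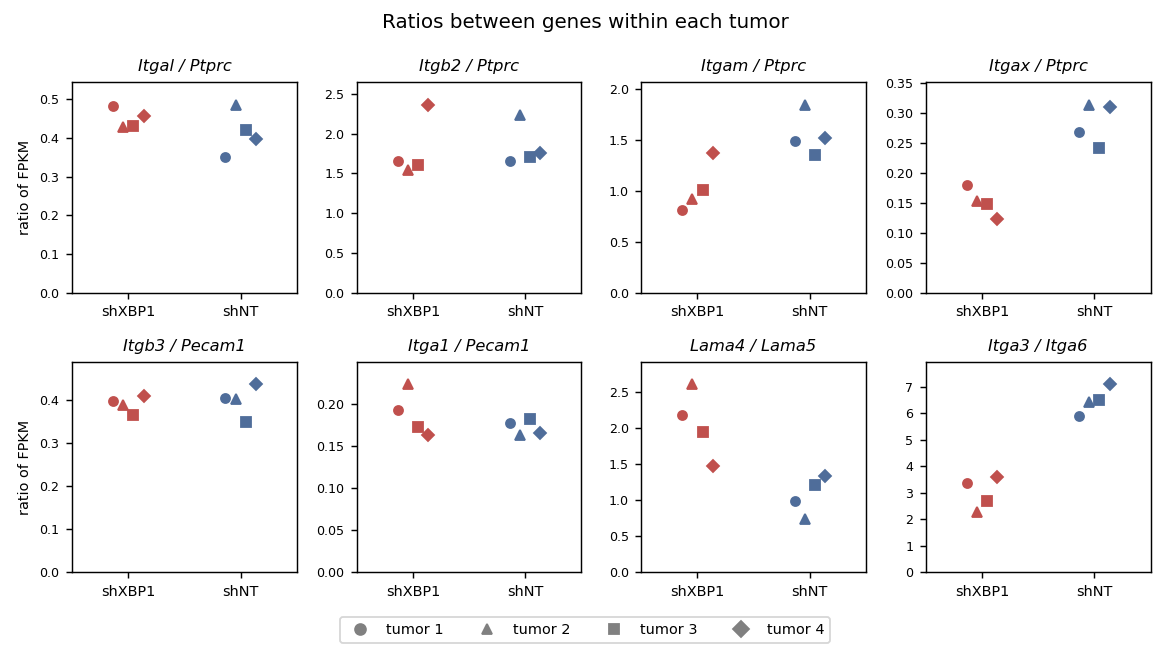
Ratios of FPKM within each tumor (y axis, from 0) for 8 pairs of genes, shXBP1 tumors on the left and shNT tumors on the right of each panel, with symbols that number the tumors. Itgal, Itgb2, Itgb3 and Itga1 keep overlapping ratios to Ptprc or Pecam1, while Itgax per Ptprc, Lama4 per Lama5 and Itga3 per Itga6 separate the groups.

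Itgb7 was not among the leukocyte chains that rose. It had 275, 206, 224 and 304 CPM in shXBP1 tumors, against 312, 301, 278 and 322 CPM in shNT tumors. The groups overlapped, with 3 shXBP1 tumors below every shNT tumor, and the difference did not pass the test (log2 fold change -0.26, SE 0.12, adjusted p = 0.105). Without shXBP1 tumor 4 it passed as lower (log2 fold change -0.36, adjusted p = 0.0145). On the FPKM scale Itgb7 was the second most abundant beta chain in both groups, at 73.9 to 108 in shXBP1 tumors and 91.4 to 105 in shNT tumors, after Itgb1 at 193 to 230 and 196 to 233. Its known partners were scarce beside it: Itga4 and Itgae summed to 1.49 to 2.61 FPKM in shXBP1 tumors and 0.974 to 1.17 FPKM in shNT tumors. Itgb7 thus exceeded them 28.5 to 72.2-fold in shXBP1 tumors and 78.4 to 107-fold in shNT tumors. The gene length implied by the authors' FPKM of Itgb7 varied between 2261 and 3053 bases over the tumors, so its FPKM is less certain than its counts. Itgb2, by contrast, stood close to the sum of its partners Itgal, Itgam, Itgax and Itgad, at 1.02 to 1.21 times that sum in shXBP1 tumors and 0.787 to 0.849 times in shNT tumors. A beta chain in excess at the RNA level was also seen for Itgb4, at 5.56 to 11.5 times its partner Itga6 in shXBP1 tumors and 6.38 to 10.8 times in shNT tumors.

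**Figure D4:**
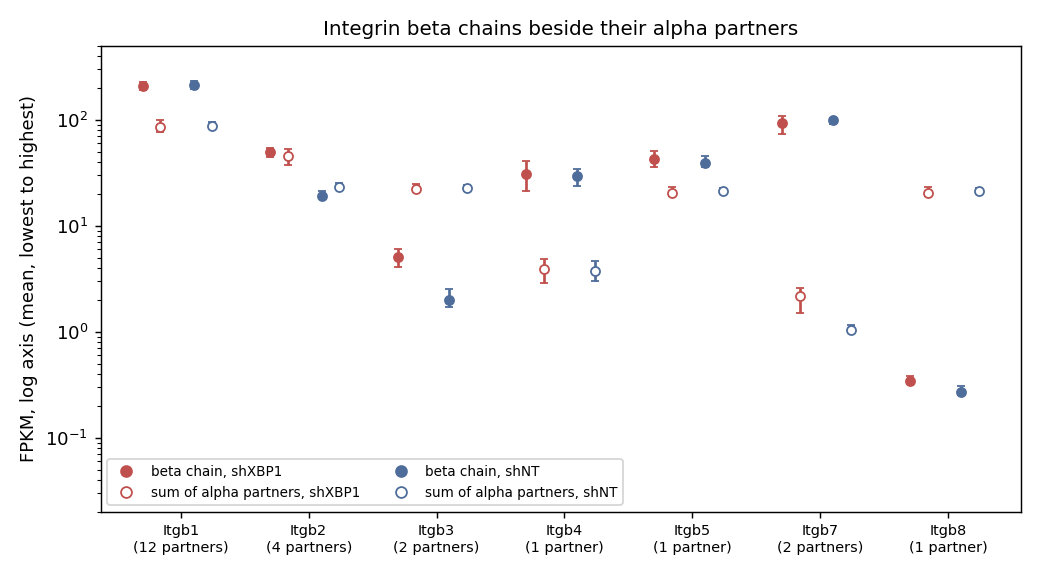
FPKM (log axis; mean with lowest to highest of 4 tumors) of 7 beta chains (filled) beside the sum of their alpha partners (open), shXBP1 in red on the left and shNT in blue on the right of each pair. Itgb7 lies far above its 2 partners in both groups, Itgb2 close to the sum of its 4 partners, and Itgb8 far below its 1 partner.

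Of the 7 vessel wall chains 5 rose, with a median log2 fold change of 0.60, and the 3 largest changes were in Itga1, Itgb3 and Lama4. The count was 3 without shXBP1 tumor 1, shNT tumor 1 or shNT tumor 3. Itga1, a collagen receptor chain of small vessels, smooth muscle and activated T cells, had 30.8, 30.4, 31.2 and 28.3 CPM in shXBP1 tumors, against 9.42, 9.02, 12.6 and 12.2 CPM in shNT tumors. The groups were far apart with little spread in either, at 2.79-fold higher (log2 fold change 1.48, SE 0.12, adjusted p = 1.23e-05). Itgb3, which with Itgav binds vitronectin and fibronectin on angiogenic vessels, macrophages and osteoclasts and with Itga2b binds fibrinogen on platelets, had 33.5, 28.0, 34.9 and 37.3 CPM in shXBP1 tumors, against 11.3, 11.7, 12.7 and 17.0 CPM in shNT tumors. All shXBP1 tumors exceeded all shNT tumors, by 2.53-fold (log2 fold change 1.34, SE 0.14, adjusted p = 4.62e-05). Lama4, the alpha chain of the laminin found along endothelium, had 106, 114, 97.0 and 76.3 CPM in shXBP1 tumors, against 30.3, 33.6, 50.0 and 53.9 CPM in shNT tumors. Both groups spread more widely than for Itga1 but did not overlap, and Lama4 was 2.35-fold higher (log2 fold change 1.23, SE 0.20, adjusted p = 0.00161).

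The other vessel wall chains had smaller fold changes. Lamc1, the gamma chain of most laminins, had 323, 285, 325 and 364 CPM in shXBP1 tumors, against 230, 279, 269 and 278 CPM in shNT tumors, a 1.23-fold rise without overlap (log2 fold change 0.30, SE 0.09, adjusted p = 0.0318). Itga5, the fibronectin receptor chain, had 242, 174, 196 and 241 CPM in shXBP1 tumors, against 173, 173, 167 and 177 CPM in shNT tumors. Tumor 2 of the shXBP1 group lay within the shNT range and the other 3 above it, and Itga5 was called at 1.24-fold (log2 fold change 0.31, SE 0.10, adjusted p = 0.0403). Itga9, a chain of lymphatic and smooth muscle cells and neutrophils that binds tenascin-C, had 11.3, 11.1, 12.1 and 7.71 CPM in shXBP1 tumors, against 5.92, 4.61, 8.25 and 9.04 CPM in shNT tumors, with overlap from shXBP1 tumor 4 and no call (log2 fold change 0.60, SE 0.22, adjusted p = 0.0537). It was called as higher by DESeq2 (adjusted p = 0.0284), with no filter (0.0466), with the filter of 1 CPM (0.0477), and without shXBP1 tumor 4 (0.014) or shNT tumor 4 (0.029). Lamb1, the common laminin beta chain, ranged over 236 to 279 CPM in shXBP1 tumors and 224 to 269 CPM in shNT tumors (log2 fold change 0.05, SE 0.09, adjusted p = 0.668).

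Endothelial markers moved with these chains. Pecam1, an adhesion molecule of endothelium that leukocytes and platelets also carry, had 47.2, 41.2, 54.7 and 52.1 CPM in shXBP1 tumors, against 16.2, 16.7, 20.9 and 22.3 CPM in shNT tumors (log2 fold change 1.36, SE 0.13). Cdh5, the cadherin of endothelial junctions, rose less, by 1.59-fold (log2 fold change 0.66, SE 0.14, adjusted p = 0.00454), and the 10 endothelial markers summed to 120 to 136 CPM in shXBP1 tumors and 58.3 to 77.0 CPM in shNT tumors. Fitted relative to the mean of Pecam1, Cdh5, Tie1 and Esam, all genes had a median log2 fold change of -0.93 and 79.9% of 14903 were called (3.64% higher and 76.2% lower). Of the 32 tested members, 5 rose and 16 fell. As with Ptprc, the error of the markers is shared by all genes, so p-values of this fit are probably too small. Of the vessel wall chains, Itga1 (log2 fold change 0.57, adjusted p = 0.00664) and Itgb3 (0.44, adjusted p = 0.0342) rose beyond the mean of those markers. They did not separate from Pecam1 alone. Itga1 per Pecam1, in FPKM, was 0.163 to 0.223 in shXBP1 tumors and 0.163 to 0.182 in shNT tumors. Itgb3 per Pecam1 was 0.365 to 0.408 and 0.348 to 0.436. Relative to the mean of the 4 markers, Itga5 (-0.62), Lamc1 (-0.62) and Lamb1 (-0.88) fell, while Lama4 (0.35, adjusted p = 0.0654) and Itga9 (-0.30) were not called. The call of Itgb3 was lost on leaving out any of 5 tumors, shXBP1 tumor 1, 3 or 4 or shNT tumor 2 or 3, and that of Lama4 was gained with 10 endothelial markers in place of 4 (log2 fold change 0.48, adjusted p = 0.00315). Lama4 was also called relative to the 4 markers without shXBP1 tumor 4 (adjusted p = 0.0304) or shNT tumor 1 (0.0437), 3 (0.0488) or 4 (0.0464). Relative to Ptprc, Itga1 differed by 0.10, Itgb3 by -0.00 and Lama4 by -0.18 on the log2 scale, so between groups their rise was close to that of Ptprc. Within the shXBP1 group they differed: Itgb3 was highest in tumor 4, where Ptprc, Itga1 and Lama4 were lowest. With Ptprc as a covariate, Itga1 (log2 fold change 1.13, adjusted p = 0.0378) and Itgb3 (1.60, adjusted p = 0.0196) kept their calls. Lama4 did not (0.40, adjusted p = 0.67). Fibroblast markers summed to 6130 to 8250 CPM in shXBP1 tumors and 1910 to 3210 CPM in shNT tumors. Most of this was Col3a1, named after its value was seen, with a mean of 5165 and 1580 CPM. Over the 9 markers the log2 fold change ran from -0.26 to 1.77, with a median of 0.75. The part of fibroblasts in the rise of these chains was not tested.

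**Figure D5:**
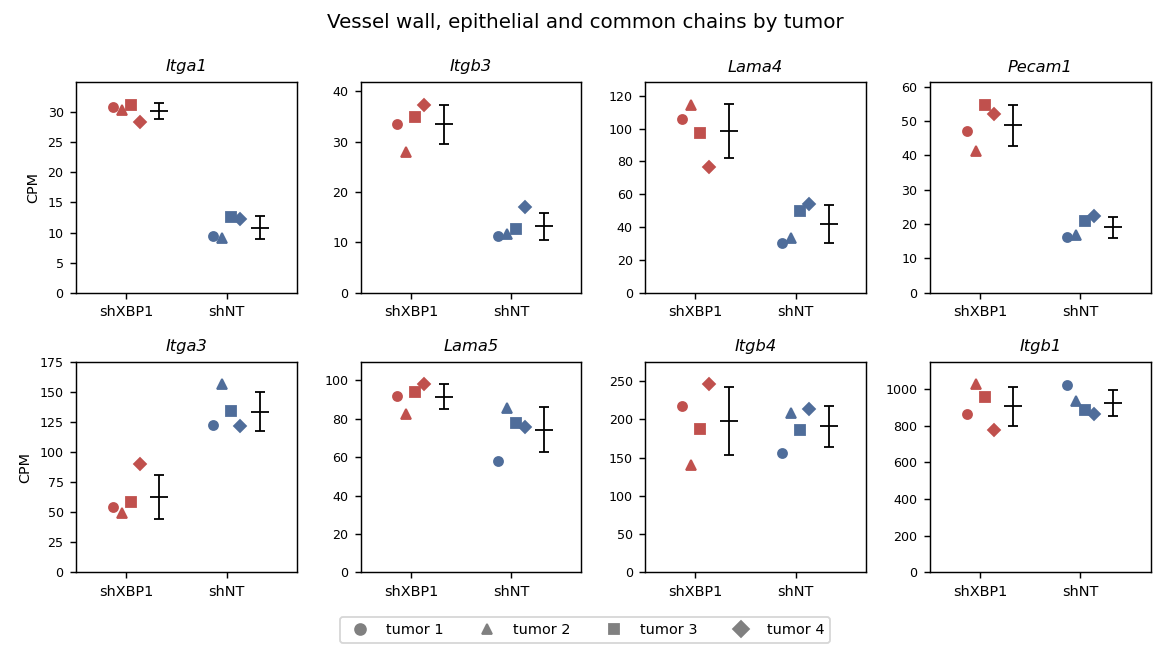
CPM by tumor (y axis, from 0) for vessel wall chains and Pecam1 (top) and for epithelial chains and Itgb1 (bottom), shXBP1 tumors on the left and shNT tumors on the right; symbols number the tumors and crosses with bars give the mean and SD of 4 tumors. The 4 upper panels show shXBP1 tumors above shNT tumors, Itga3 shows them below, and Lama5, Itgb4 and Itgb1 overlap.

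Of the 8 tested epithelial chains 0 rose and 1 fell, with a median log2 fold change of 0.04. Itga3, which with Itgb1 is a receptor for the laminins of epithelial basement membranes, had 54.4, 49.0, 58.2 and 89.9 CPM in shXBP1 tumors, against 123, 156, 134 and 121 CPM in shNT tumors. All 4 shXBP1 tumors were below all 4 shNT tumors, with tumor 4 the nearest, and Itga3 was 2.12-fold lower (log2 fold change -1.09, SE 0.18, adjusted p = 0.00148). With Ptprc as a covariate Itga3 was not called (log2 fold change -0.09, adjusted p = 0.861). That loss cannot be assigned to Ptprc or to the hairpin. Itga6, the other laminin-binding alpha chain of epithelia, ranged over 14.3 to 21.8 CPM in shXBP1 tumors and 14.8 to 21.3 CPM in shNT tumors (log2 fold change 0.04, adjusted p = 0.877). The FPKM of Itga3 was 3.35, 2.27, 2.67 and 3.58 times that of Itga6 in shXBP1 tumors, against 5.88, 6.42, 6.48 and 7.08 times in shNT tumors. The balance of these laminin receptor chains thus lay lower on the Itga3 side in every shXBP1 tumor.

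Lama3 and Lamb3, an alpha and a beta chain of the laminin beneath epithelia, were at low levels: Lama3 stayed at 0.837 to 1.34 CPM in shXBP1 tumors and 1.10 to 1.59 CPM in shNT tumors, and Lamb3 at 0.953 to 1.22 CPM and 0.173 to 1.29 CPM. Itgb4, the chain of hemidesmosomes, had 217, 141, 187 and 246 CPM in shXBP1 tumors, against 155, 208, 185 and 214 CPM in shNT tumors, with full overlap (log2 fold change 0.05, SE 0.16, adjusted p = 0.838). Lama5, an alpha chain of epithelial and vessel basement membranes, had 91.7, 82.4, 93.7 and 97.9 CPM in shXBP1 tumors, against 57.9, 85.6, 77.6 and 75.8 CPM in shNT tumors, and missed the threshold (log2 fold change 0.30, SE 0.11, adjusted p = 0.0587). It was called as higher by DESeq2, with no filter, with the filter of 1 CPM, and without shXBP1 tumor 2 or shNT tumor 2 (adjusted p = 0.0367 to 0.0485). Lama4 per Lama5, in FPKM, was 1.47 to 2.61 in shXBP1 tumors and 0.739 to 1.34 in shNT tumors, without overlap. Without adjustment, 1 epithelial chain was higher and 2 were lower at p under 0.05. DESeq2, which called 33.6% of all genes, called 1 epithelial chain higher and 2 lower, and limma voom, which called 29.6% of all genes, called 0 higher and 1 lower. Itga2, a collagen receptor chain of epithelium and platelets, stayed between 1.11 and 2.08 CPM over all 8 tumors.

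Among muscle and mesenchymal chains, 3 of 5 rose, Lama2 at low counts. Lama2, the alpha chain of muscle and nerve laminin, had 0.733, 2.06, 2.69 and 2.41 CPM in shXBP1 tumors, against 0.977, 0.252, 0.451 and 0.655 CPM in shNT tumors. Tumor 1 of the shXBP1 group lay within the shNT range, and the level was 3.36-fold higher (log2 fold change 1.75, SE 0.46, adjusted p = 0.0135). Itga10, a collagen receptor chain known from cartilage, had 5.32, 5.37, 4.79 and 6.80 CPM in shXBP1 tumors, against 2.46, 3.34, 2.53 and 4.33 CPM in shNT tumors (log2 fold change 0.81, SE 0.22, adjusted p = 0.0143), without overlap. It shares exons with Gm42957 on the same strand, whose counts came to 7.74% of its own. Lamb2, the beta chain of vessel, kidney and synapse laminins, had 159, 125, 121 and 132 CPM in shXBP1 tumors, against 81.9, 106, 98.6 and 122 CPM in shNT tumors (log2 fold change 0.39, SE 0.12, adjusted p = 0.028). Here shXBP1 tumor 3 lay just below shNT tumor 4, which made the groups overlap. The muscle laminin receptor chain Itga7 and the smooth muscle chain Itga8 stayed at or below 2.49 CPM in all 8 tumors and were not called. The 6 skeletal muscle markers summed to 16.1 to 70.2 CPM in shXBP1 tumors and 9.67 to 30.3 CPM in shNT tumors.

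Of the other chains, 0 of the 5 tested were called, and the groups overlapped in all of them except Itgb8. Itgb1, the partner of 12 alpha chains, had 863, 1025, 955 and 777 CPM in shXBP1 tumors, against 1021, 932, 884 and 863 CPM in shNT tumors. It was the most abundant member and overlapped between groups (log2 fold change -0.03, SE 0.10, adjusted p = 0.841). Itgav, which joins Itgb1, Itgb3, Itgb5, Itgb6 or Itgb8 to bind proteins with the RGD motif, ranged over 142 to 192 CPM in shXBP1 tumors and 160 to 184 CPM in shNT tumors (log2 fold change -0.04, adjusted p = 0.769). Its partner Itgb5 ranged over 129 to 166 CPM in shXBP1 tumors and 109 to 163 CPM in shNT tumors (log2 fold change 0.11, adjusted p = 0.545). Itgb3 was thus the only tested partner of Itgav that was called, and Itgb3 over the sum of Itgav and Itga2b in FPKM was 0.168 to 0.288 in shXBP1 tumors and 0.0706 to 0.113 in shNT tumors. Itgb8, a chain that activates TGF-beta, had 3.12, 3.31, 3.32 and 3.43 CPM in shXBP1 tumors, against 2.52, 2.43, 2.43 and 2.99 CPM in shNT tumors, without overlap and without a call (log2 fold change 0.35, SE 0.19, adjusted p = 0.186). Itga2b, the platelet and megakaryocyte chain, ranged over 4.63 to 7.61 CPM in shXBP1 tumors and 4.82 to 7.07 CPM in shNT tumors. With edgeR 0 of these 5 chains passed at an unadjusted p under 0.05.

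The proteins that switch integrins on and link them to actin were read from a list of 34 genes, of which 33 were tested, 10 rose and 2 fell, with a median log2 fold change of 0.15. This is 36.4% called, against 30.0% of all genes (16.9% higher and 13.1% lower). Fermt3, the kindlin of blood cells that activates integrins, had 51.1, 50.8, 49.5 and 42.7 CPM in shXBP1 tumors, against 24.8, 22.7, 23.1 and 25.3 CPM in shNT tumors, a 2.02-fold rise without overlap (log2 fold change 1.02, SE 0.09, adjusted p = 1.38e-05). Fermt2, the kindlin of adherent cells, ranged over 78.9 to 95.4 CPM in shXBP1 tumors and 85.3 to 98.1 CPM in shNT tumors (log2 fold change -0.00, adjusted p = 0.976). Talin, which binds the beta chain tail in most cells, did not differ beyond its spread either, with Tln1 at 357 to 435 CPM in shXBP1 tumors and 302 to 400 CPM in shNT tumors (log2 fold change 0.08, adjusted p = 0.615). Other rises were in Ptk2b, the focal adhesion kinase relative of leukocytes and neurons (log2 fold change 0.63, adjusted p = 0.000342), Cyth1, a regulator of Itgb2 adhesion (0.64, adjusted p = 0.000514), and Syk, the kinase below leukocyte receptors and integrins (0.45, adjusted p = 0.000639). The 2 that fell, Parvb and Bcar1, named after their values were seen, are a partner of integrin-linked kinase and a focal adhesion scaffold, each with a log2 fold change of -0.37. The count of 2 became 7 without shXBP1 tumor 4, 0 without shXBP1 tumor 2 or 3 or shNT tumor 2 or 3, and 1 without any other tumor.

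Integrin ligands were read from a second list. Of 32 ligand genes listed, 30 were in the table and 23 were tested, of which 8 rose and 2 fell, with a median log2 fold change of 0.47. Among all genes tested, 16.9% were called higher and 13.1% lower, 30.0% in all, against 43.5% of these ligands. Without shNT tumor 1 the count of rises was 5. Icam1, the ligand of Itgal and Itgam with Itgb2, had 60.4, 49.4, 39.9 and 36.1 CPM in shXBP1 tumors, against 17.7, 13.0, 20.6 and 17.6 CPM in shNT tumors, a 2.70-fold rise without overlap (log2 fold change 1.43, SE 0.18, adjusted p = 0.000218). Vcam1, the ligand of Itga4, had 352, 482, 395 and 300 CPM in shXBP1 tumors, against 222, 220, 240 and 237 CPM in shNT tumors, 1.66-fold higher without overlap (log2 fold change 0.73, SE 0.12, adjusted p = 0.000998). Receptor and ligand thus stood higher together for both pairs. Fn1, the fibronectin bound by Itga5 and Itgav, had 2087, 2090, 1960 and 1861 CPM in shXBP1 tumors, against 1093, 1164, 1020 and 1185 CPM in shNT tumors (log2 fold change 0.84, SE 0.09, adjusted p = 4.03e-05). Cyr61, a matrix protein bound by Itgav, rose by 1.54-fold (log2 fold change 0.63, adjusted p = 0.000884). Cdh1, the E-cadherin that Itgae binds with Itgb7, had 7.01, 7.04, 9.33 and 9.86 CPM in shXBP1 tumors, against 6.96, 4.54, 6.00 and 6.24 CPM in shNT tumors, without overlap and without a call by edgeR (log2 fold change 0.49, SE 0.18, adjusted p = 0.0597). DESeq2 called it as higher (adjusted p = 0.0369). Tnc, the tenascin-C bound by Itga9, was 1.64-fold lower (log2 fold change -0.71, adjusted p = 0.000318), and Mfge8, an Itgav ligand on dying cells named after its value was seen, was 1.25-fold lower. The count of 2 that fell was 1 on leaving out any tumor other than shXBP1 tumor 4.

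Among 20 partners of laminin in basement membranes and other laminin receptors, 18 were tested, 9 rose and 0 fell, with a median log2 fold change of 0.29. The share called was 50.0%, where 30.0% of all genes tested were called, 16.9% as higher and 13.1% as lower. At an unadjusted p under 0.05, 1 was lower in edgeR, DESeq2 called 1 lower and limma voom 0, and edgeR called 1 lower without shNT tumor 1. Col4a1, a chain of the collagen IV network that laminins are tied to, had 169, 147, 157 and 144 CPM in shXBP1 tumors, against 73.1, 92.7, 97.9 and 107 CPM in shNT tumors, 1.66-fold higher without overlap (log2 fold change 0.73, SE 0.11, adjusted p = 0.000435). Nid1, the linker between laminin and collagen IV, had 20.3, 22.2, 19.6 and 19.0 CPM in shXBP1 tumors, against 12.7, 14.7, 18.4 and 16.6 CPM in shNT tumors (log2 fold change 0.38, SE 0.12, adjusted p = 0.0345). The call of Nid1 was lost on leaving out any of 6 tumors, all but shXBP1 tumor 4 and shNT tumor 3 (adjusted p = 0.0502 to 0.0927), and with the tumor number as a replicate block (0.0689). Ntn1, a secreted relative of laminins that guides axons and vessels, rose by 1.64-fold (log2 fold change 0.72, adjusted p = 0.00015). The heparan sulfate proteoglycans Sdc2 (log2 fold change 0.77, adjusted p = 0.00159) and Sdc4 (0.35, adjusted p = 0.0107), co-receptors for matrix, rose too. Hspg2, the perlecan of basement membranes (0.20, adjusted p = 0.237), and Dag1, the dystroglycan that binds Lama2 (-0.20, adjusted p = 0.23), were not called.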

How the data were processed

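RNA-seq of 8 whole tumors, 4 labelled shXBP1 and 4 labelled shNT, was read from 1 table of the series; groups are the genotypes in the labels. The deposited counts are whole numbers per gene with no normalization, per the file headers. The deposited FPKM, which the authors scaled to library size and gene length (per the file headers), were used here for levels and ratios between genes, never in a test. The genome build is GRCm38, as the submitters' processing notes name it; aligner, counter, strandedness and annotation were not given in the sources used here. In no test was the authors' own comparison used, and 0 columns of sample values were left out. Coordinates are from GENCODE M21. For the 21 symbols shared by several identifiers, the one with the highest total was used.

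Members and gene lists were chosen with earlier results of these data known. Low counts were filtered with filterByExpr, which left 14907 genes, and libraries were scaled by TMM factors of 0.98 to 1.04. The main test was edgeR's quasi-likelihood test (version 4.0.16, R 4.3.3; robust, no covariate, two-sided) with Benjamini-Hochberg adjustment across every gene tested, and calls at adjusted p under 0.05. To measure genes relative to Ptprc, or to the mean log2 CPM (prior count 2) of Pecam1, Cdh5, Tie1 and Esam, that value was added to the offset. Errors beside log2 fold changes are SE, and n = 4 tumors per group.

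Every member could be named, and 1 is counted but not reported by name here. Of each pathway list, the 4 genes with the smallest p were named, plus Tln1, Fermt3, Fermt2, Icam1, Vcam1, Fn1, Nid1, Hspg2 and Dag1, and of the marker lists Ptprc, Pecam1, Cdh5, Epcam, Cdh1 and Krt8. The listed ligands Ccn1 and Ccn2 are in the table as Cyr61 and Ctgf. Alternatives were DESeq2 (version 1.42.0), limma voom (version 3.58.1), other size factors, no filter, a filter of 1 CPM in 4 libraries, the tumor number as a block, Ptprc as a covariate, other marker sets and leaving out each tumor. The procedure was tested on simulated counts. Tumors of a group differed beyond counting noise in every pair (chi-square per degree of freedom at least 16.5), so none was a repeat of another library.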

Additional observations from a re-analysis of the deposited data

Results flagged for a closer look

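In 4 of 112 groups of 4 tumors, 1 tumor lay far from the other 3 of its group, where chance gives about 1 in 20 groups. Tln1 was 435 CPM in shXBP1 tumor 4 (others 357 to 364 CPM). Itgb8 was 2.99 CPM in shNT tumor 4 (others 2.43 to 2.52 CPM), Sdc2 was 268 CPM in shNT tumor 4 (others 199 to 206 CPM), and Fermt2 was 98.1 CPM in shNT tumor 3 (others 85.3 to 86.6 CPM).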

How the results depend on the processing

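Of 464 pairs of a named member and an alternative, 404 kept direction and side of the threshold, 30 lost the call, 13 gained one and 17 changed sign. Direction and call held in all 14 alternatives other than the Ptprc covariate for 10 of the 14 called members. With Ptprc as a covariate the counts of rises were 3 of all members (13 without it), 1 of leukocyte, 2 of vessel wall and 0 of muscle and mesenchymal chains, 0 of adaptors, 0 of ligands and 1 of basement membrane partners, and 0 members, epithelial chains, adaptors or ligands fell. Signs changed with it for Itga2 (-0.12), Itga4 (-0.22), Itga7 (0.99), Itga8 (-0.34), Itga9 (-0.48), Itgax (-1.05), Itgb7 (0.29) and Dag1 (0.33, log2 scale). DESeq2 called 1 epithelial chain higher, and as lower it called 2 epithelial chains (2 members in all), 4 adaptors and 1 basement membrane partner. No filter, and the filter of 1 CPM, each gave 1 epithelial chain higher, Lama5.

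Same-numbered tumors did not deviate together (r = -0.074, -0.141, -0.025 and -0.06), so the numbers were not taken to pair them. With the tumor number as a replicate block 22.4% of genes were called, against 30.0%, and the counts of rises were 3 vessel wall chains, 1 muscle and mesenchymal chain, 5 ligands and 5 basement membrane partners, with 0 adaptors lower. The block cost Itga5, Lama2, Lamb2 and Lamc1 their calls.

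Leaving out 1 tumor gave 10 to 14 members higher and 1 to 3 lower, where 22.6% to 35.1% of all genes were called. By class it gave 3 to 5 vessel wall chains higher, 0 to 1 epithelial chains higher and 1 to 2 lower. By list it gave 0 to 7 adaptors, 1 to 2 ligands and 0 to 1 basement membrane partners lower, and 5 to 8 ligands higher. Relative to endothelial markers it gave 3 to 7 members higher (5 with all tumors), where 2.59% to 5.02% of all genes were higher. Uncalled genes near 0 changed sign when 1 tumor was left out, over ranges of -0.01 to 0.23 for Itga2b, -0.05 to 0.14 for Itga6, -0.42 to 0.011 for Itga7, -0.13 to 0.027 for Itgav, -0.095 to 0.041 for Itgb1, -0.064 to 0.19 for Itgb4 and -0.038 to 0.056 for Fermt2 (0.001 with no filter and 0.009 with the CPM filter). Relative to Ptprc the ranges were -0.21 to 0.06 for Itgb2, -0.35 to 0.18 for Itgb3 and -0.12 to 0.22 for Itga1, and with 5 leukocyte markers in place of Ptprc the values were 0.17 for Itgb2, 0.20 for Itgb3 and 0.036 for Lama4. The cause was not tested. Members well under 1 CPM could not be tested at this depth.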

Other observations

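Markers of some other cell types moved in the same tumors. The 5 mast cell genes rose, with a median log2 fold change of 3.39, and summed to 42.3 to 100 CPM in shXBP1 tumors and 4.44 to 9.80 CPM in shNT tumors. The 6 keratinocyte genes summed to 50.1 to 56.0 CPM in shXBP1 tumors and 148 to 210 CPM in shNT tumors. Nearly all of this was Krt14, a keratin of basal keratinocytes (mean 49.4 and 175 CPM), which fell by 1.83 on the log2 scale. Krt10 was not called (0.09, adjusted p = 0.835). Below the filter, summed counts were higher in shXBP1 tumors for Krt5 (141 against 3), Trp63 (74 against 16), Krt1 (22 against 0) and Dsg3 (15 against 0). Over shXBP1 tumors 1 to 4 they were uneven: Krt5 had 37, 96, 0 and 8 counts and Trp63 had 7, 38, 6 and 23. Krt1 had 0, 22, 0 and 0, and Dsg3 had 8, 2, 0 and 5. These genes were named after their values were seen. The 7 pericyte and smooth muscle genes summed to 243 to 266 CPM in shXBP1 tumors and 176 to 188 CPM in shNT tumors, with 1 of 7 called, Acta2. The higher sum rested on Acta2, with a mean of 124 CPM in shXBP1 tumors and 44.7 CPM in shNT tumors. Over the 7 genes the log2 fold change ran from -0.25 to 1.47, with a median of 0.27. The 6 neutrophil genes summed to 24.9 to 31.2 CPM in shXBP1 tumors and 6.31 to 11.1 CPM in shNT tumors. Platelet and megakaryocyte genes, which share Itga2b and Itgb3 with the chains described, summed to 57.4 to 110 CPM in shXBP1 tumors and 33.0 to 52.1 CPM in shNT tumors, with 1 of 4 tested genes called, Pf4.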
